A study of Mus musculus with 72 samples.

Results

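Blood gene expression 1 day after 0.25 Gy of neutrons was compared directly with that 1 day after 1 Gy of x-rays, in 6 mice each, chosen by their sample labels. These 12 arrays are part of 72 in the series, and the 5 sham-irradiated control mice of day 1 are given beside them. The study set a lower neutron dose against a higher x-ray dose because neutrons are the more damaging radiation per unit of dose. All mice were young adult C57BL/6 males, and each array holds globin-reduced RNA from the whole blood of 1 mouse, drawn by cardiac puncture. The neutron mice were turned in holders on a wheel around an accelerator target whose beam also carries γ rays, and the x-ray mice received an orthovoltage beam. Radiation type, dose and dose rate thus all differ between the groups. How the x-ray mice were held is not stated in the paper. The control mice were trained in the holders as the neutron mice were, and sat on the same wheel while the beam was off.

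Neutrons transfer their energy through recoil nuclei along short dense tracks, while x-rays deposit it sparsely through electrons, and both break DNA and activate p53. p53 switches on genes that halt the cell cycle, feed back on p53 itself or start cell death. Blood holds B cells, which are among the most radiosensitive cells of the body, together with T cells, natural killer (NK) cells, neutrophils, monocytes and platelets. It also holds young red cells, or reticulocytes, which still carry the RNA of the bone marrow cells they came from.

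Levels are log2 intensities relative to the median of the detected probes of the same array, so that 0 is that median, and differences are neutron minus x-ray on the log2 scale. A gene was called when its p from limma was under 0.001 and its Benjamini-Hochberg adjusted p was under 0.05, so that the tests rest on the spread between mice.

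All 6 neutron arrays were scanned on 1 date and the 5 control arrays on the same date, while 4 x-ray arrays were scanned on another date and 2 on a later one. Control replicates 4 and 5 share a slide with neutron replicates 1 and 2, while control replicates 1 to 3 and neutron replicates 3 to 6 share none. No slide and no scan date holds both neutron and x-ray arrays, so slide, date and radiation cannot be told apart in the direct comparison, and date and x-rays cannot be told apart against the controls. The share of spots well above background was 59.7% ± 2.87 (SD, n = 6) after neutrons and 59.7% ± 4.79 (SD, n = 6) after x-rays, an exact two-sided permutation test giving p = 0.991, where the smallest possible is 0.00216. The x-ray mean joins 2 unlike sets of arrays. The 2 arrays of the later date had 53.5% and 53.8%, and the 4 of the earlier date 61.6% to 64.6%. Equal means therefore do not show that the arrays were alike in detection. Neutron replicate 5 stands apart from its group, with a median correlation of 0.886 with the other arrays, low B, T and NK cell genes and the highest level of the hepatocyte list (8.12). The median difference of the fatty acid oxidation list was -0.04, and -0.55 without this mouse. That of the sterol biosynthesis list was 0.17, and -0.33 without it. Other medians and genes that it moves are in part given also without it.

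Of 10863 genes tested, 538 were called, or 4.95%. Of these 523 were higher after neutrons (4.81%) and 15 lower (0.138%), while the median difference over all genes was 0.00. The higher genes differed by 0.75 to 3.06 with a median of 1.45, and the lower genes by -0.86 to -2.89 with a median of -1.26. The 2 groups of mice did not overlap at all in 431 of the higher and 11 of the lower genes, against 5.85% and 0.525% of all genes tested in these directions and 6.37% in either. The count was 338 without neutron replicate 1, 357 without x-ray replicate 5 and 344 with scan date as a random block, against 617 without neutron replicate 5 and 514 without the 2 x-ray arrays of the later date. With normexp background correction, which raises dim intensities before the logarithm, 1 gene was called, and 832 had an unadjusted p below 0.05, against 2338 in the processing used here.

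Of the 523 higher genes, 110 were also called lower than in the controls after x-rays, and none was called after neutrons. Both comparisons with controls use the same 5 mice, so they are given side by side and not as separate evidence. The mean after x-rays was below that of the controls for 519 of the 523 higher genes, the control mean lay between the irradiated groups for 439, and it was nearer to the neutron mean for 403, in genes whose choice rests on the same irradiated mice. Averaged over the 523 genes, the mice spanned -1.14 to -0.14 after neutrons, -2.73 to -1.82 after x-rays and -2.01 to -0.76 in controls. Against the controls, 831 genes were called after x-rays (7.65%), 336 higher (3.09%) and 495 lower (4.56%), and 1 gene after neutrons (0.00921%), Ap2b1. An unadjusted p below 0.05 by limma was found for 3990 genes after x-rays and 1841 after neutrons. The single call therefore does not show that the neutron mice equal the controls. With scan date as a random block the count of x-ray calls was 3, all higher. With intensities centred on spike-in RNA it was 401, of which 261 were higher and 140 lower.

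Among the 28 lists, those of the red cell held most of the calls. Over the lists of red cell membrane proteins, of heme and iron genes and of erythroid factors, 62 genes were tested, 13 rose relative to x-rays (21%, against 4.81% of all genes) and none fell, and the median difference was 0.78, against 0.00 over all genes. A total of 52 of the 62 lay above 0. Against the controls, 26 of the 62 were called lower after x-rays (4.56% of all genes were) and none was called after neutrons. This is not particular to the red cell lists. Lower after x-rays were also called 11 of 23 B cell and 6 of 10 MHC class II genes. Of 21 p53 targets 8 were called higher after x-rays (3.09% of all genes were). In these lists too no gene was called after neutrons. With scan date as a random block no gene was called lower after x-rays, so the 26 calls and the other lower ones are lost. In bulk blood, fewer red cell precursors and less RNA per cell cannot be told apart.

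The red cell membrane list held the largest differences, with 6 of 17 members called, a median of 1.41, and medians against controls of -0.43 after neutrons and -1.72 after x-rays, where the medians of all genes were 0.12 and -0.01. Ank1 encodes ankyrin, which ties the skeleton of the red cell to its membrane. Its levels ran from -1.67 to 0.80 after neutrons (median -0.83), from -4.37 to -2.07 after x-rays (median -3.09) and from -0.32 to 1.28 in controls (median -0.21). The irradiated groups were separate and differed by 2.36 (SE 0.46, adjusted p = 0.00862 by limma). The chloride and bicarbonate exchanger Slc4a1, known as band 3, to which ankyrin binds, spanned 4.65 to 6.78 after neutrons (median 5.48), 2.38 to 4.51 after x-rays (median 3.42) and 5.37 to 7.08 in controls (median 6.24). It differed by 2.10 (SE 0.42, adjusted p = 0.00965 by limma), again with no overlap of the irradiated groups. In both genes the x-ray mice also lay below all controls.

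In the heme and iron list 3 of 18 members were called, with a median of 0.50. Slc25a37, the mitochondrial iron importer mitoferrin, ranged from 7.53 to 8.93 after neutrons (median 8.34), from 5.95 to 7.58 after x-rays (median 6.45) and from 8.32 to 9.08 in controls (median 8.74). The irradiated groups touched in 1 pair of mice, and differed by 1.66 (SE 0.33, adjusted p = 0.00912 by limma). Fech, ferrochelatase, which inserts iron into heme, differed by 1.25 (SE 0.27, adjusted p = 0.0125 by limma) and Glrx5, which serves iron-sulfur cluster assembly, by 1.38 (SE 0.32, adjusted p = 0.0174 by limma). Ppox, an earlier enzyme of heme synthesis, differed by 0.70 (adjusted p = 0.0396 by limma), which did not pass the p limit.

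Of 27 erythroid factors and reticulocyte clearance genes 4 were called, with a median of 0.76. They were Yod1, a deubiquitinase (1.49, SE 0.32), Bpgm, which makes the 2,3-bisphosphoglycerate that loosens the hold of hemoglobin on oxygen (1.24, SE 0.27), Ube2o, which tags unneeded proteins in maturing reticulocytes (1.35, SE 0.32), and Usp15, another deubiquitinase (1.18, SE 0.28). With date as a random block none of the 27 was called, nor with normexp or with arrays centred on the median of all probes. None was called either without neutron replicate 1 or 2 or x-ray replicate 1, 5 or 6. With spike-in centring 1 was called. Usp15 was called in 11 and Ube2o in 13 of 30 alternatives. Of 6 globin genes none was called, with a median of 0.39, after an assay step that removes globin RNA. Hbb-b2 differed by 0.57 (95% interval 0.16 to 0.99) and Hbb-b1 by 0.62 (95% interval 0.10 to 1.14), and near-identical genes such as these could share signal.

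The scan dates moved with the red cell values. Against the 4 x-ray arrays of the earlier date the median difference of the 62 red cell genes was 0.95, and against the 2 of the later date it was 0.43. For the 13 called genes these values were 1.77 and 0.88. Without the later arrays 28 of the 62 were called, without neutron replicate 5 there were 12, without x-ray replicate 5 there were 4, with date as a random block 6, and with normexp 0, where the median was 0.51. The differences of the called red cell genes named above did not all shrink with normexp. Larger were Slc4a1 (2.20), Slc25a37 (1.82), Ube2o (1.63), Glrx5 (1.57), Fech (1.45), Bpgm (1.40) and Usp15 (1.29). Smaller were Ank1 (1.27) and Yod1 (0.96). The part of the scan date in the red cell result was not tested.

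**Figure D1:**
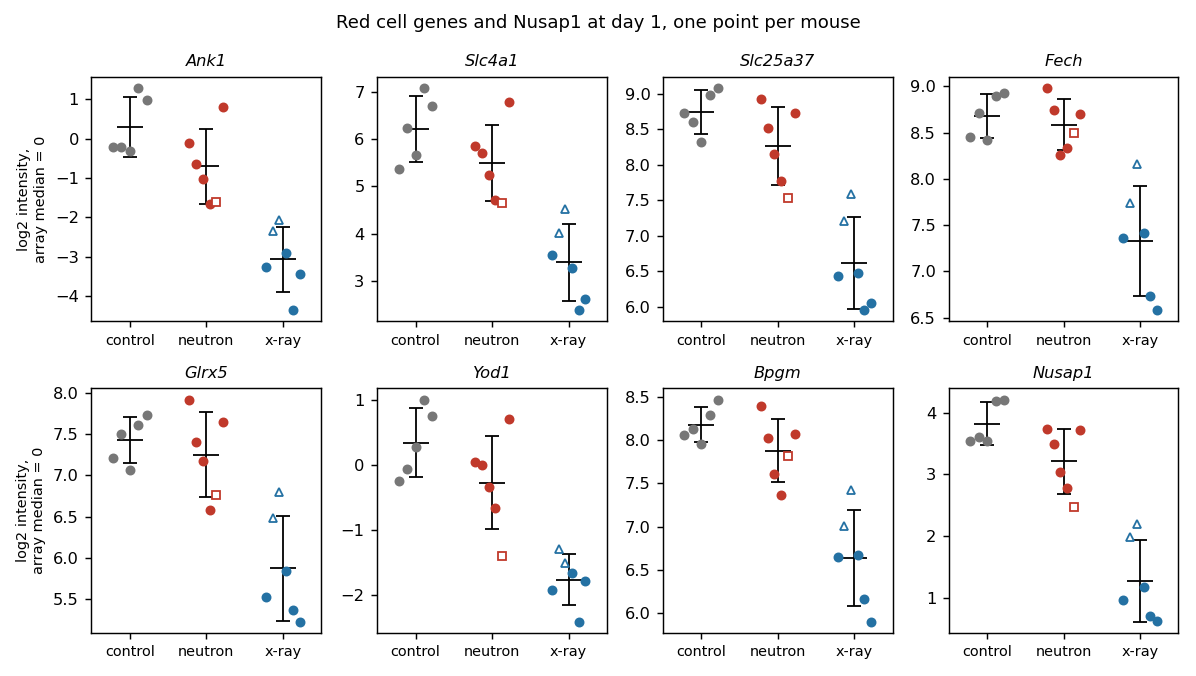
Levels of 8 genes (log2 intensity, array median at 0) in each control, neutron and x-ray mouse of day 1, with the mean and SD as black bars; open squares mark neutron replicate 5 and open triangles the 2 x-ray arrays of the later scan date. For Ank1 the medians are -0.83, -3.09 and -0.21 in neutron, x-ray and control mice, and for Slc4a1 5.48, 3.42 and 6.24. In both the neutron median lies between those of the other groups, nearer to the controls.

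Genes of the cell cycle were mixed. In the mitosis list 2 of 26 members were called higher and the median was -0.33, or -0.08 without neutron replicate 5. Nusap1, which bundles spindle microtubules, ranged from 2.47 to 3.74 after neutrons (median 3.27), from 0.62 to 2.20 after x-rays (median 1.07) and from 3.54 to 4.21 in controls (median 3.61). All neutron mice lay above all x-ray mice, by 1.93 on average (SE 0.33, adjusted p = 0.00538 by limma). Ube2c, the ubiquitin-conjugating enzyme of the anaphase-promoting complex, was 2.91-fold higher (1.54, SE 0.34, adjusted p = 0.0147 by limma).

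Ccna2, cyclin A2, with a difference of 1.18, and Cdc25b, a phosphatase that activates cyclin-dependent kinases, with 1.25, did not pass. Cdk1, the kinase that drives entry into mitosis, lay the other way, at -1.02 (95% interval -1.62 to -0.42, adjusted p = 0.0345 by limma), and did not pass either. In the DNA replication list 1 of 28 members was called, Lig1, the ligase that joins replicated fragments (1.49, SE 0.36, adjusted p = 0.0201 by limma), and the median was -0.12. Lig1 was called in 10 of 30 alternatives, and neither with the date block nor with the replicate block.

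In the set of genes that the study followed for opposite changes at days 1 and 7, Slc25a51, a mitochondrial carrier, rose by 1.55 (SE 0.34, adjusted p = 0.0148 by limma) relative to x-rays. The others, E2f2, Anp32e, Bsdc1, Eif5, Mta3, Mtmr3, Ubac1 and Wdr26, lay between 0.61 and 1.20 and were not called. The study chose that set for lower levels at day 1 in these x-ray mice, among others. Its direction is therefore not independent, either against controls or between the irradiated groups. The study followed Nusap1, Ube2c, Ccna2 and Cdc25b for a fall at day 1 after x-rays too, so the same holds for them.

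The median of the p53 targets lay above the controls in both irradiated groups, and none of them was called between the groups. Over 21 members the median was -0.36, with medians against controls of 0.62 after neutrons and 0.93 after x-rays. Cdkn1a, the p53-induced inhibitor of cyclin-dependent kinases, ranged from -1.81 to 0.26 after neutrons (median -1.41), from -0.87 to 0.32 after x-rays (median -0.48) and from -4.20 to -2.87 in controls (median -3.74). Both irradiated groups lay wholly above the controls. The direct difference was -0.63 (95% interval -1.42 to 0.17, adjusted p = 0.368 by limma). Against controls Cdkn1a differed by 2.48 after neutrons (adjusted p = 0.0817 by limma, not called) and 3.11 after x-rays (adjusted p = 4e-04 by limma).

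Psrc1 and Bax separated the irradiated groups without being called. Psrc1, a spindle protein, lay between -3.45 and -2.02 after neutrons and between -1.97 and -1.34 after x-rays, a difference of -0.87 (95% interval -1.38 to -0.37, adjusted p = 0.0325 by limma). Bax, which permeabilises mitochondria in cell death, differed by -0.70 (95% interval -1.11 to -0.29, adjusted p = 0.0338 by limma). The intervals of Ccng1 (-0.87 to 0.04), Phlda3 (-1.08 to 0.08), Aen (-0.87 to 0.20) and Ei24 (-1.03 to 0.37) all included 0. Without neutron replicate 5 Aen differed by -0.55, Ei24 by -0.65 and Cdkn1a by -0.88. Mdm2 and Trp53inp1 varied too little over the arrays to be tested, and Eda2r was not detected.

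Of 23 B cell genes none was called between the irradiated groups. The median was -0.04, and 0.32 without neutron replicate 5, with medians against controls of -0.95 after neutrons and -0.82 after x-rays. Fcer2a, the low-affinity IgE receptor of B cells, differed by 0.42 (95% interval -0.38 to 1.21) and Cd22, an inhibitory B cell receptor, by 0.22 (95% interval -0.25 to 0.69), which became 0.78 and 0.35 without that mouse. Ms4a1, or CD20, differed by -0.30 (95% interval -1.10 to 0.50) and by 0.069 without neutron replicate 5. The 10 MHC class II genes, which present antigen to T cells, had a median of 0.02, and 0.29 without neutron replicate 5. The sign of these medians is not settled, since it turned in 3 alternatives for B cells and 11 for MHC class II.

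T cell, NK cell and platelet lists had medians below 0 with no member called. Below 0 lay 25 of 27 T cell, 17 of 17 NK cell and 20 of 21 platelet genes, against 5399 of all 10863. The NK cell median was -0.88 over 17 genes, and -0.47 without neutron replicate 5. Against controls it was 0.06 after neutrons and 0.91 after x-rays. Il2rb, a chain of the interleukin-2 and interleukin-15 receptors, spanned 1.61 to 4.44 after neutrons, 4.17 to 5.31 after x-rays and 3.07 to 3.56 in controls, a difference of -1.04 (95% interval -1.96 to -0.13, adjusted p = 0.166 by limma). Gzmb, the killing protease granzyme B, differed by -1.07 (95% interval -2.03 to -0.10, adjusted p = 0.179 by limma). The lowest neutron values of both are those of replicate 5, without which Il2rb differed by -0.66 and Gzmb by -0.63.

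The T cell median was -0.61 over 27 genes, and -0.20 without neutron replicate 5. Against controls it was -0.33 after neutrons and 0.34 after x-rays. Lat, an adaptor of the T cell receptor, differed by -0.99 (95% interval -1.60 to -0.38, adjusted p = 0.0445 by limma) with separate groups. The platelet median was -0.50 over 21 genes, and -0.24 without the later x-ray arrays. Against controls it was above 0 in both groups, at 0.37 after neutrons and 0.90 after x-rays. The monocyte median was 0.45 over 18 genes, and 0.29 without neutron replicate 6. Above 0 lay 17 of the 18, against 5464 of all 10863, and none was called. The neutrophil median was -0.08 over 21 genes, and 0.10 without neutron replicate 5.

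Of 33 interferon-stimulated genes none was called and the median was -0.17, with 25 below 0 and 8 above. Rsad2, or viperin, an antiviral enzyme, differed by 1.58 (SE 0.41) and passed the false discovery rate but not the p limit, as did Irf7, an interferon regulatory factor (0.96, SE 0.26). The hepatocyte list, of genes that blood cells should lack, had 15 members tested, none called, and a median of -0.22. This median ran from -1.21 without the later x-ray arrays to 0.52 without neutron replicate 2, and turned sign in 7 alternatives. Its level per mouse over 42 genes on the array ran from 0.32 to 8.12 after neutrons, from 1.69 to 6.40 after x-rays and from -1.67 to 5.63 in controls, and all 42 genes were well above background on every array of both irradiated groups. With this level as a covariate 740 genes were called, all 538 among them.

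**Figure D2:**
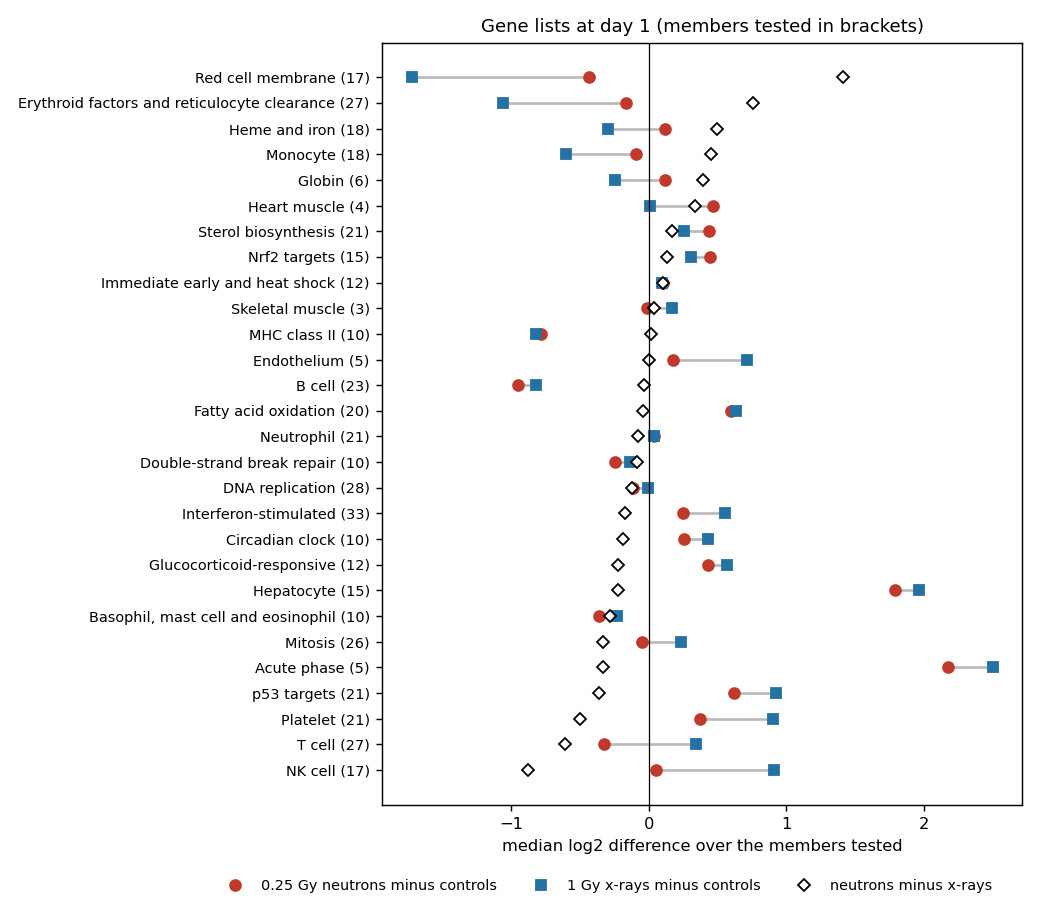
Median log2 difference over the tested members of each of 28 gene lists, with circles for neutrons minus controls, squares for x-rays minus controls and diamonds for neutrons minus x-rays, and the number of members tested in brackets. The red cell membrane list stands farthest to the right in the direct difference (1.41) and the NK cell list farthest to the left (-0.88).

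**Figure D3:**
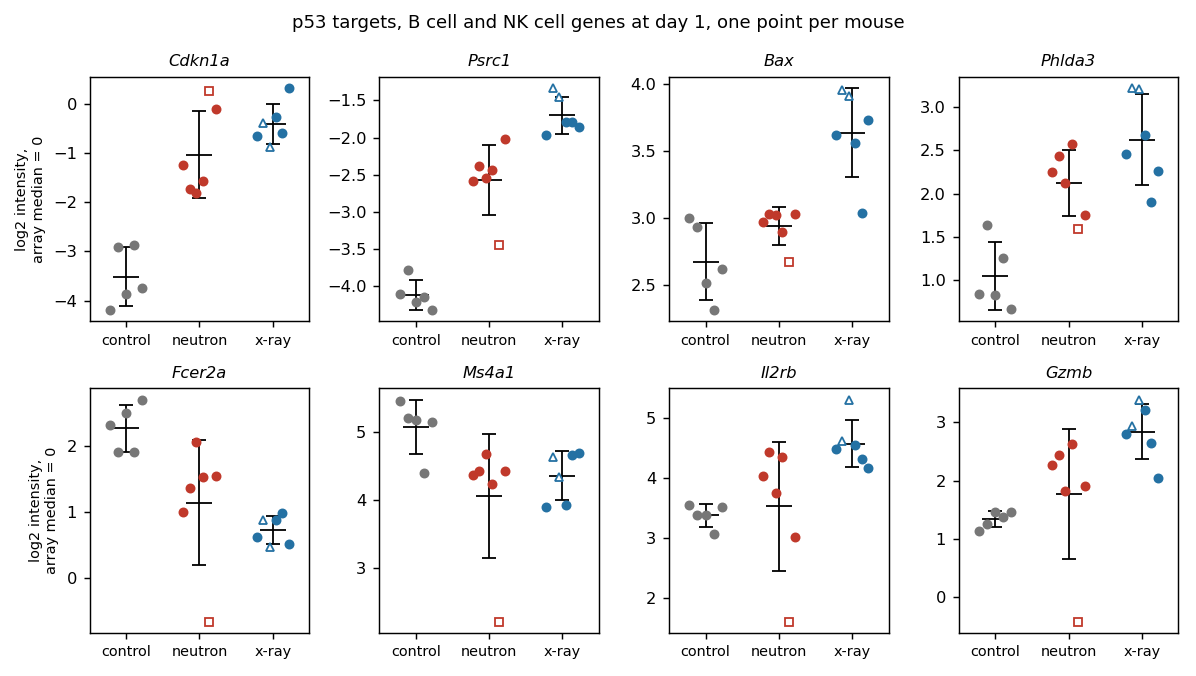
Levels of 4 p53 targets and 4 lymphocyte genes (log2 intensity, array median at 0) in each mouse of day 1, with the mean and SD as black bars, open squares for neutron replicate 5 and open triangles for the later x-ray arrays. Cdkn1a lies above the controls in every irradiated mouse, and neutron replicate 5 is the lowest mouse in all 4 lymphocyte genes.

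Most of the higher genes belong to no list. Of the 523, 506 are in none of the 28 lists, and 211 (40.3%) carry only an accession, a clone or a predicted gene name, against 29.1% of the genes tested. They were dim, with a median level of -1.31 after neutrons, -2.83 after x-rays and -1.85 in controls. After x-rays 374 were well above background on all 6 arrays and 149 on some.

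The receptors of smell, that is the olfactory, vomeronasal and trace amine receptors, are genes of sensory neurons. Of 1371 on the array 97 were tested, and 28 of those were called higher (28.9%, against 4.81% of all genes), none lower, with a median of 0.96. Their mean level per mouse over the 28 ran from -2.33 to -1.20 after neutrons, from -4.16 to -2.99 after x-rays and from -3.51 to -1.92 in controls. With normexp none was called and the median was 0.19. Members of such families have near copies, so a probe cannot be taken as 1 gene.

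Slc4a7, a sodium bicarbonate cotransporter, had the largest difference of all. It ranged from 3.96 to 6.79 after neutrons (median 4.86), from 0.29 to 3.86 after x-rays (median 1.94) and from 0.10 to 3.07 in controls (median 2.00). All neutron mice were above all others, and the direct difference was 3.06 (SE 0.61, 8.35-fold, adjusted p = 0.00927 by limma). The second probe of the gene differed by 0.30, so the 2 probes disagree. Without the 2 x-ray arrays of the later date the difference was 2.43 and was not called. C2cd4c, which has a membrane-binding C2 domain, differed by 2.44 (SE 0.29, adjusted p = 0.00304 by limma), and was the gene still called with normexp. Tead1, a DNA-binding partner of the Hippo pathway, differed by 2.38 (SE 0.36), and its second detected probe by -0.18.

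Dynap, Pdha2 and Vmn1r172 were well above background on 1, 1 and 2 of the 6 x-ray arrays and on all neutron arrays, so that most of their x-ray levels are at background and no fold is given. With normexp they differed by 0.27, 0.29 and 0.40. Ptchd1 differed by 2.71, or 0.68 with normexp, and was well above background on 3 x-ray arrays. Defa1, an α-defensin of gut Paneth cells, differed by 2.33 (SE 0.56) but was called in only 9 of 30 alternatives. Myl3, a myosin light chain of heart and slow muscle, was 2.83-fold higher (adjusted p = 0.00535 by limma). The heart muscle list stood near background, at -4.69 to -4.16 after neutrons and -4.79 to -4.15 after x-rays, over 18 genes.

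The probes of the higher genes differed in their letters from the rest. Cytosine made up 26.4% of the letters in the probes of the 523 and 21.7% in all, and adenine 22.9% and 27.9%. Among all 1024 words of 5 letters compared, TGCCT was found in 27.9% of the probes of the 523 (146 genes), in 10.2% of all probes tested (1112) and in 0 of the 15 lower ones. Its reverse complement AGGCA was found in 4.78% and 5.19%. Among genes whose probe holds the word, 13.1% were called higher with a median difference of 0.32, and among the others 3.87% with a median of -0.02. With normexp these medians were 0.11 and -0.04.

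Of the 13 called red cell genes 2 held it (15.4%), and of the other called genes 28.2%, a difference that was not tested. The word was picked after comparing all words with these results and is a description. The windows of 30 bases that follow are from the probes of higher genes that hold the word, written 5′ to 3′ in the probe's orientation with the word in capitals, and shown because they carry the letters in question.
Ptchd1: tctatttcctcttgcagctgTGCCTtcaaa
Defa23: ctgaggccactgatgctggTGCCTgatgac
Slc4a1: gttttgggcacaccccatcctctccTGCCT
Clec18a: gcTGCCTtcaactggaatgaccaacgttgt
Obox1: cccattttcctgttgtTGCCTctgacaatg
Ssx9: agaagaaagactTGCCTctggagagcatga

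In mouse build mm9, as the array files give it, these windows lie at chrX:152008298-152008327 on the minus strand (Ptchd1), chr8:22332170-22332199 on the plus strand (Defa23), chr11:102210256-102210285 on the minus strand (Slc4a1), chr8:113594616-113594645 on the minus strand (Clec18a), chr7:15983289-15983318 on the plus strand (Obox1) and chrX:8327797-8327826 on the plus strand (Ssx9). Their exon or intron placement was not analysed here. The differences of Defa23, Clec18a, Obox1 and Ssx9, which were chosen after their values were seen, were 2.17, 2.06, 2.02 and 1.93. Slc4a1 is the only red cell gene shown.

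**Figure D4:**
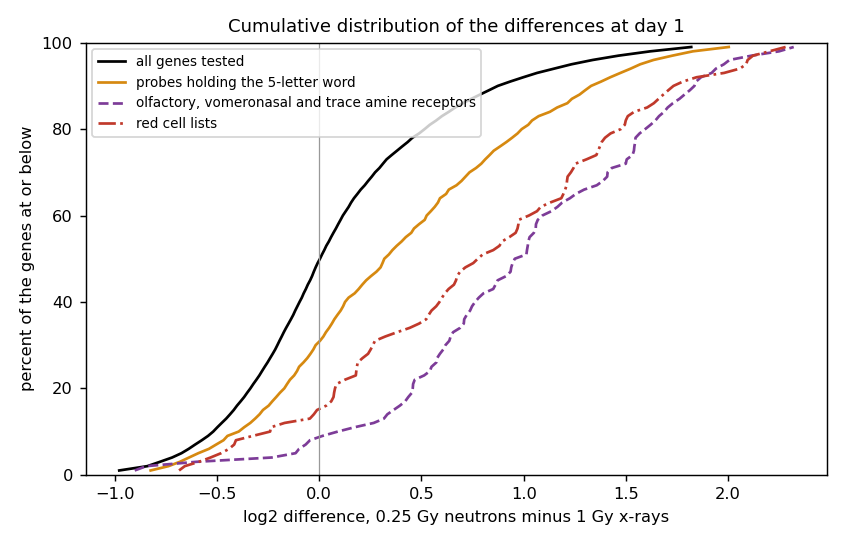
Cumulative percent of genes at or below each log2 difference (neutrons minus x-rays, 1st to 99th percentile) for all genes tested, genes whose probe holds the 5-letter word, receptors of smell and the red cell lists. The 4 curves pass 50% at 0.00, 0.32, 0.96 and 0.78.

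The 15 lower genes formed no list, as none of the 453 list genes tested was called lower. For 11 of them the control mean lay nearer to x-rays, and for 4 nearer to neutrons. Ap2b1, a subunit of the AP-2 adaptor of clathrin-coated pits, spanned -4.56 to -3.15 after neutrons (median -4.28), -3.73 to -0.21 after x-rays (median -0.81) and -1.65 to 0.09 in controls (median -0.36). In 1 x-ray mouse the level fell inside the neutron range, and the difference was -2.89 (SE 0.52, 7.42-fold, adjusted p = 0.00624 by limma). It was also the gene that fell against controls after neutrons (-3.65, adjusted p = 0.00105 by limma), a call lost with normexp, with all day 1 arrays in the fit, with the replicate block, with slide as a fixed block and within the slide that holds both groups.

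Arpc3, a subunit of the Arp2/3 complex that nucleates branched actin, ranged from 1.38 to 4.09 after neutrons (median 3.62), from 4.76 to 6.49 after x-rays (median 5.74) and from 5.06 to 5.81 in controls (median 5.34). The groups were separate, at -2.58 (SE 0.44, adjusted p = 0.00538 by limma), and its other probes differed by -1.88 and -2.34. Raly, an RNA-binding protein, ranged from -0.44 to 0.33 after neutrons, from 0.74 to 2.42 after x-rays and from 1.08 to 2.49 in controls, a difference of -1.70 (SE 0.27, adjusted p = 0.00535 by limma). In Arpc3 and Raly the neutron mice lay below every other mouse.

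Dus4l, a dihydrouridine synthase of tRNA, differed by -1.63 and Tmem39b by -1.26, with controls near the x-ray mice in both. In Tmem39b the neutron mice lay below every x-ray and control mouse. Kdelr1, which returns proteins to the endoplasmic reticulum, differed by -1.70 and its second probe by -0.08. Ccdc71 (-1.34, second probe 0.27) and Vapb, which tethers the endoplasmic reticulum to other membranes (-1.33, second probe -0.17), likewise rest on 1 of 2 probes.

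H2ac4, a histone of the H2A family whose near copies could share its probe, differed by -1.19, and its control mice lay nearer to the neutron mice. Against the 4 x-ray arrays of the earlier date the median of the 15 genes was -1.10, and against the 2 of the later date -1.74. Without the later arrays 4 of the 15 were called. The part of the scan date in the lower genes was not tested.

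**Figure D5:**
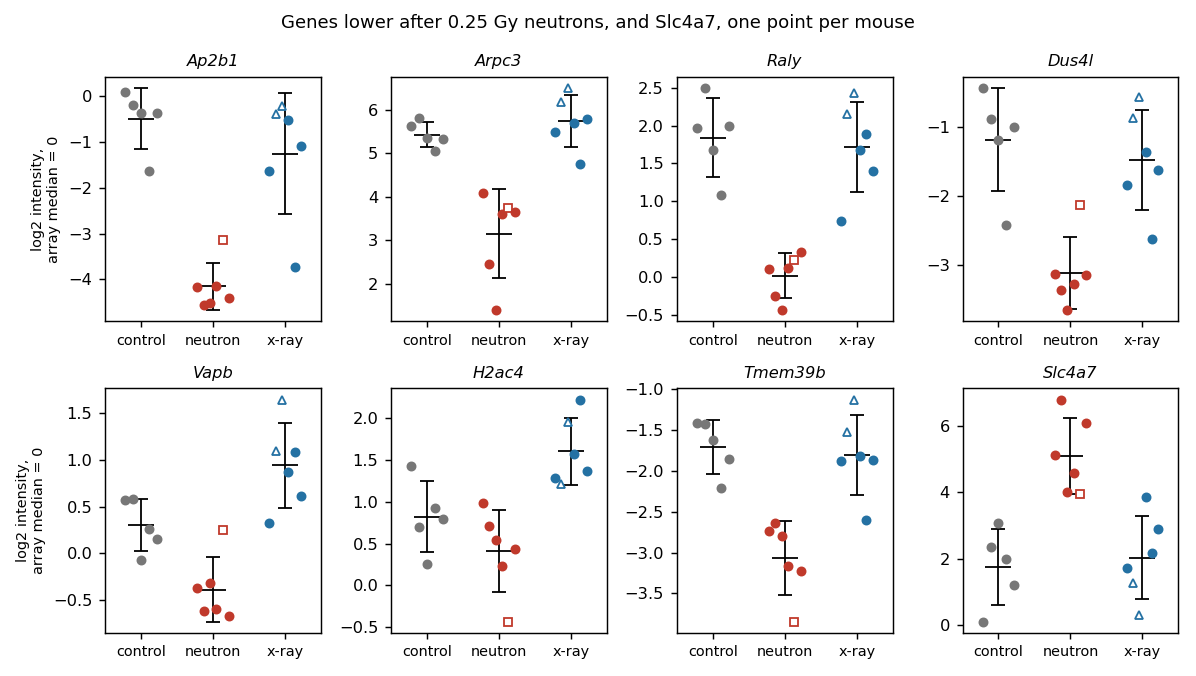
Levels of 7 genes lower after neutrons and of Slc4a7 (log2 intensity, array median at 0) in each mouse of day 1, with the mean and SD as black bars, open squares for neutron replicate 5 and open triangles for the later x-ray arrays. Neutron mice lie below all controls in Ap2b1, Arpc3, Raly and Tmem39b, while in H2ac4 they overlap the controls and lie below all x-ray mice.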

How the data were processed

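Male mouse blood RNA was hybridised to one-colour Agilent arrays. The deposited files hold background-corrected intensities that the authors extracted with Agilent Feature Extraction (12.0.2 in the submitters' processing notes) and did not normalize between arrays. Here log2 was taken, and the median over detected probes was subtracted within each array. A probe was kept when fewer than 25% of its day 1 and day 7 spots were marked as outlying or dim, and when it varied 1.5-fold on 20% of those arrays. The brightest probe stood for a gene, named through its accession for 28330 probes. limma 3.58.1 (R 4.3.3) compared the groups without covariates. limma stands for the random variance test of the study's methods, which was written in R as an alternative. Other alternatives changed the background correction, scaling, filters, blocks and the mice included.

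Genes named were the 10 most different called ones in each direction (those without a symbol only among the first 3), up to 4 members of each list with the smallest p, and p53, cell cycle and bi-directional genes of the study, and a few genes are not reported here. The members and lists were chosen with earlier results of these data known. In simulated data of 10777 genes for this comparison, 32 of 100 genes changed 2-fold and 88 of 100 changed 4-fold were called, with 7 false calls. Each gene was drawn independently there, without effects of date, slide or mouse shared between genes. The 7 therefore do not give the number of false calls in the real arrays. The number of arrays limits the precision.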

Additional observations from a re-analysis of the deposited data

Results flagged for a closer look

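Of 330 values (levels of named genes, list levels and array measures), 28 held a mouse far from the others of its group by Dixon's criterion, where chance gives about 1 in 20. Of these 16 are neutron replicate 5 and 6 are control replicate 4. In neutron replicate 5 the levels were 2.22 for Ms4a1, 2.15 for H2-Aa, 2.03 for Cd3e and -0.43 for Gzmb, and its list levels were 0.13 for B cells, 1.88 for MHC class II, 0.32 for T cells, -0.58 for NK cells and -1.99 for double-strand break repair, all below the rest of the group.

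The same mouse was above the others in Aen (3.05), Ei24 (1.04), Ap2b1 (-3.15), Dus4l (-2.13), fatty acid oxidation genes (4.70) and sterol biosynthesis genes (2.78), and its median correlation with its group was 0.886. Control replicate 4 stood apart in Ap2b1 (-1.65), Saa1 (6.11), its correlation with its group (0.955) and the levels of the B cell (2.29), DNA replication (-0.18) and double-strand break repair (-1.65) lists.

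The remaining values were Tead1 (-0.79) and Defa1 (3.17) in neutron replicate 6, Pdha2 in control replicate 1 (-6.56), Ccdc71 in x-ray replicate 5 (0.57), the neutrophil list in x-ray replicate 1 (0.55) and the immediate early and heat shock list in x-ray replicate 6 (-0.16).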

How the results depend on the processing

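The direct comparison gave 538 calls, and 1 with normexp, 215 with spike-in centring, 1013 with the false discovery rate alone, 344 with scan date as a random block and 318 with the replicate block. Leaving out 1 mouse gave 338 (without neutron replicate 1) to 617 (without neutron replicate 5), and 357 without x-ray replicate 5.

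Neutrons against controls gave 1 call (1841 genes at unadjusted p below 0.05). With normexp it gave 0 (953), with the replicate block 0 (1364) and within the slide holding both groups 0 (1614). It gave 2 with quantile normalization, without the detection filter, with dim spots missing, with the hepatocyte covariate and with slide as a fixed block, 24 with all day 1 arrays, 23 with slide as a random block, and 1 to 34 leaving out 1 mouse (34 without neutron replicate 3, 27 without neutron replicate 5, 8 without control replicate 4).

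X-rays against controls gave 831, and 3 with normexp, 401 with spike-in centring, where the median of all genes moved from -0.01 to 0.13, 480 with all day 1 arrays, 2307 with the false discovery rate alone, 3 with the date block, 365 with slide as a random block, 493 with the replicate block and 411 to 965 leaving out 1 mouse (540 without x-ray replicate 4, 502 and 411 without control replicates 3 and 5).

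Of the list genes 17 were called, and 0 with normexp, 7 with the median of all probes, 11 with spike-in centring, 43 with the false discovery rate alone, 8 with the date block, 38 with the hepatocyte covariate, 9 with the replicate block, 37 without the later x-ray arrays and 6 to 27 leaving out 1 mouse. Of the 80 named genes 31 were called, and 1 with normexp, 19 with the date block, 19 with the replicate block and 19 to 37 leaving out 1 mouse.

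Over 30 alternatives, called named genes kept the call in 706 of 924 values and the sign in the other 218. Leaving out 1 mouse moved Ms4a1 between -0.42 and 0.069 and Ciita between -0.31 and 0.076, above 0 only without neutron replicate 5. The difference in the share of spots well above background was -0.02 percentage points, and leaving out 1 mouse gave -1.26 to 0.96, with 0.52, 0.73, 0.50, 0.50, 0.35 and 0.96 above 0. The causes were not tested. Replicate numbers are shared by the groups, and the labels do not say that they pair the mice. Only replicate 2 correlated best with its own number (0.74), which cannot settle whether mice were paired. The fits without the later x-ray arrays, with slide as a fixed block and within 1 slide were chosen after seeing the data.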

Other observations

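The genes lower after 0.25 Gy of neutrons were also read in the other irradiated mice of day 1, after their values were seen. In the 6 mice given 1 Gy of neutrons, Ap2b1 was at -5.46, -6.63 and -5.02 in replicates 1 to 3 and at -0.68, -0.58 and -0.48 in replicates 4 to 6. Arpc3 was at 0.86, 2.20 and 0.17 in the first 3 and at 5.98, 5.86 and 6.25 in the others. Raly split the same mice, with -0.94, -0.56 and -1.22 against 2.15, 1.10 and 2.01. Replicates 1 to 4 share 1 slide. In the mice given 4 Gy of x-rays Ap2b1 ranged from -1.11 to -0.20 and Raly from 1.67 to 2.31.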
